A study of Caenorhabditis elegans with 12 samples.

Results

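The F-box A genes are the worm genes whose symbols begin with fbxa-. They were taken here as every row of the deposited gene count table whose sequence name carries such a symbol in the Ensembl annotation of WBcel235. This gave 170 members of 27904 genes in the table, all 170 of them protein coding, against 104 F-box B and 48 F-box C genes found the same way. Their RNA was measured in pools of early Caenorhabditis elegans embryos by sequencing total RNA depleted of ribosomal RNA, with 3 libraries in each of 4 genotypes. The genotypes were met-2(n4256), set-25(n5021), the double mutant that carries both alleles, and the wild type N2, all grown at 20 °C. Per the labels, embryos of about 1 to 300 cells were collected 60 to 65 h after the worms were synchronized as L1 larvae. MET-2 and SET-25 are the enzymes that methylate lysine 9 of histone H3 in the worm, MET-2 up to the dimethyl state and SET-25 to the trimethyl state, and the comparisons ask which RNAs change when either or both are lost. The labels state 2 independent biological replicates where 3 libraries are listed, so p-values measure the spread between these libraries, part of which may be technical.

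F-box proteins are the interchangeable substrate receptors of the SCF ubiquitin ligases: the F-box binds a Skp1-related adaptor (SKR in the worm), which binds the scaffold cullin CUL-1 or CUL-6, and the rest of the F-box protein selects the target for ubiquitin. Nematodes have expanded this gene class far beyond other animals, and F-box A proteins join the F-box to an FTH domain, named after FOG-2, the F-box protein that allows hermaphrodites to make sperm. Substrates of most members are unknown. The few with an assigned role include FBXA-75 and FBXA-158, which act with CUL-6 in the response of the worm intestine to intracellular pathogens.

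The family lies in runs of neighbouring genes on the chromosome arms, where H3K9 methylation is dense in this species. Chromosome V held 71 members and chromosome III 60, which was 35.3% of the family against 13.3% of all protein-coding genes. Of 156 autosomal members, 152 (97.4%) lay in the arms, taken as the outer parts when a chromosome is cut into 3 equal lengths, against 61.5% of protein-coding genes. Joined over gaps of up to 20 kb, 118 members formed 24 runs and 52 stood alone. The longest run held 26 members over 110.4 kb (III:1239048-1349450), the next 15 members over 94.3 kb (III:2219708-2314035) and another 10 members over 30.4 kb (III:933422-963833). Exons of 28 members overlap those of another gene. Reads that fit several near-identical copies cannot be assigned with certainty in such a family, and the sources used here do not say how the authors counted them.

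The libraries differed in depth and in the makeup of their RNA. Gene counts per library were 23543963 to 25667207 in the met-2-labelled libraries, 16929810 to 23924919 in set-25, 42943190 to 46833848 in the double mutant and 41033729 to 52683919 in N2, so depth cannot be told apart from genotype. The met-2 RNA stood at 214.6, 275 and 313 CPM (counts scaled to the library total with TMM factors) in libraries a, b and c of the met-2 label, at 305, 362 and 322 CPM in set-25, at 54.2, 51.03 and 52.01 CPM in the double mutant and at 314, 330 and 320 CPM in N2. The first group is therefore called by its label below. The set-25 RNA stood at 77.2, 109 and 115 CPM in the met-2-labelled libraries, at 37.3, 40.1 and 37.6 CPM in set-25, at 57.5, 62.3 and 60.6 CPM in the double mutant and at 181, 185.4 and 218 CPM in N2. A list of 24 muscle, gut, cuticle and neuron genes of differentiated tissue summed to 3900, 4307 and 2376 CPM in the met-2-labelled libraries, to 636, 1559 and 2291 CPM in set-25, to 2730, 2574 and 2616 CPM in the double mutant and to 1284, 1329 and 842 CPM in N2. Of its 22 tested genes 21, 12 and 11 were called higher than N2 in the 3 other groups, in that order, and at most 1 gene of the list was at 0 in any library. A list of 24 maternal and oocyte genes summed to 2077 to 2504 CPM in the met-2-labelled libraries, 2040 to 2860 CPM in set-25, 5212 to 5928 CPM in the double mutant and 5868 to 7573 CPM in N2. Maternal RNA was thus present in every library. Library a of set-25 stood apart from c of the same group in the tissue list, and counts are given without it where it moved them. In such pools, fewer cells of a type and less RNA per cell cannot be told apart.

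Most F-box A genes were near silent in these embryos. Of the 170 members, 91 (53.5%) had enough counts to be tested, a share near that of all genes in the table (14260 of 27904). The other 79 members averaged at most 0.181 CPM over the 12 libraries, 7 of them with no count anywhere. No count was found for 14 members in the met-2-labelled libraries, 18 in set-25, 23 in the double mutant and 19 in N2. Of the tested members 36 averaged below 1 CPM, 37 between 1 and 5 CPM and 18 at 5 CPM or more. A member could be tested if it reached 0.300 CPM in at least 3 libraries. In all 3 libraries of a group, 78 tested members reached it in the met-2-labelled libraries, 75 in set-25, 60 in the double mutant and 61 in N2, so some were tested only because they were high in a mutant, and counts over the tested members carry that choice.

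One gene dominated the family's RNA. fbxa-215 (Y45F10C.3, IV:13665364-13666909) supplied 20.3 to 31.9% of all counts of the family in a library. It stood at 104, 94.9 and 132 CPM in the met-2-labelled libraries, at 197, 129 and 104 CPM in set-25, at 143, 142 and 141 CPM in the double mutant and at 186, 172 and 195 CPM in N2. Per kilobase of the deposited gene width, which spans introns, its level averaged 73.4, 95.5, 94.7 and 123 CPM in the same order of groups. The next members by level per kilobase in N2 were fbxa-210 with 37.5 CPM, fbxa-206 with 29.4, fbxa-83 with 28.1, fbxa-101 with 20.8, fbxa-65 with 10.6, fbxa-170 with 10.5 and fbxa-120 with 9.66. Their levels per kilobase in the met-2-labelled libraries were lower in every case, from 23 CPM for fbxa-210 to 4.49 CPM for fbxa-120, which a choice by level in N2 favours. The summed level of the family was 457, 411 and 467 CPM in the met-2-labelled libraries, 700.4, 515 and 510.2 CPM in set-25, 550.5, 545 and 534 CPM in the double mutant and 584, 573 and 616 CPM in N2. The met-2-labelled libraries were lowest in this sum without overlap with any other group, while the set-25 libraries spread on both sides of N2. This rests on the 5 members with the highest CPM in N2. Without them the sum was 234, 214 and 206 CPM in the met-2-labelled libraries and 295, 249 and 285 CPM in set-25. It was 231, 224 and 220 CPM in the double mutant and 217, 226 and 231 CPM in N2. The met-2-labelled libraries then overlapped N2, and all set-25 libraries lay above every other library.

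**Figure D1:**
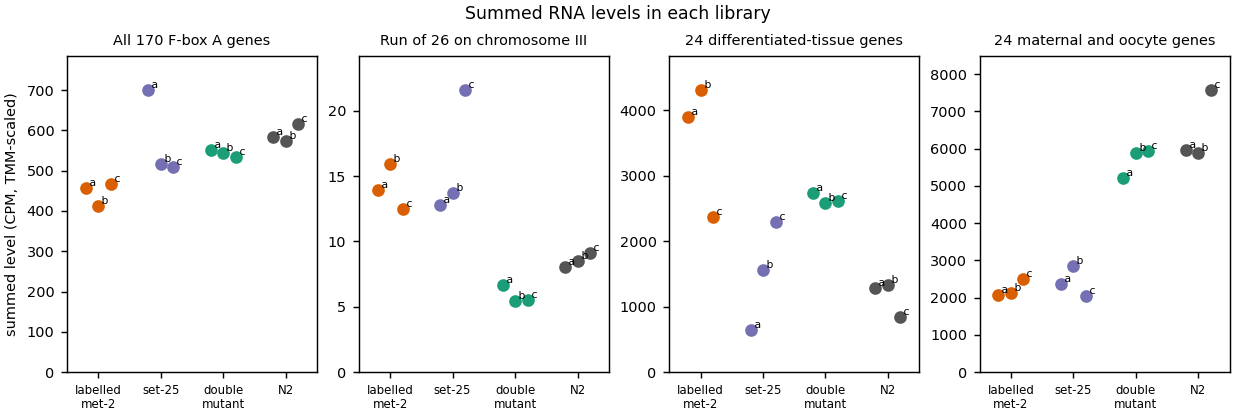
Summed RNA level in CPM (vertical axes, linear, from 0) in each of the 12 libraries (letters a to c) for all 170 F-box A genes, for the run of 26 neighbours on chromosome III, for 24 genes of differentiated tissue and for 24 maternal and oocyte genes. The run of 26 is higher in all met-2-labelled and set-25 libraries than in N2, and lower in all double mutant libraries, while the tissue list is higher in the double mutant than in N2.

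In the met-2-labelled libraries F-box A genes were called in both directions against N2, in shares near or below those of all genes. Of 91 tested members 28 were called higher (30.8%) and 15 lower (16.5%), where 35.2% of all 14260 genes tested were called higher and 29.6% lower. The median log2 change was 0.25 over the members and 0.05 over all genes tested. Among members below 1 CPM 20 of 36 (55.6%) were higher, against 52.3% of all genes at that level, and among those at 5 CPM or more 9 of 18 (50.0%) were lower, against 44.2%. Between 1 and 5 CPM 7 of 37 members (18.9%) were higher, against 59.1% of all genes. At 5 CPM or more 1 of 18 members (5.56%) was higher, against 22.2% of all genes. The share called higher below 1 CPM and the share called lower at 5 CPM or more were thus near those of other genes. In the middle and the abundant class the share called higher was below that of other genes. With library totals in place of TMM the median of all genes moved to 0.32, and 35 members were called higher and 7 lower. Of all 14260 genes 6250 were then higher and 2440 lower. The 15 lower calls became 9 without library a and 8 without library b of this group. Lower calls over all genes became 3167 of 14906 and 3145 of 14882 there.

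Of members averaging 0.5 CPM or more, those that rose most in these libraries were scarce in N2, which a ranking by change over N2 favours. fbxa-24, fbxa-105, fbxa-60 and fbxa-54 did not reach the level for testing in all 3 N2 libraries. They could be tested because they were higher in other groups. fbxa-24 (F54D10.2, II:3816526-3818238) had 1.37, 1.29 and 0.392 CPM in the met-2-labelled libraries, against 0.124, 0.0535 and 0.0546 CPM in N2. The groups did not overlap, and the log2 change was 3.59 (SE 0.59, edgeR adjusted p = 0.0013). fbxa-105 (C02H6.2, V:7390529-7392029), 1 of 4 members in the centre of an autosome, had 1.29, 1.68 and 0.748 CPM, against 0.207, 0.0803 and 0.109 CPM in N2, a log2 change of 3.15 (SE 0.43, edgeR adjusted p = 0.000752). fbxa-60 (T12B5.10, III:944733-946300) had 1.49, 1.18 and 1.07 CPM, against 0.187, 0.187 and 0.191 CPM in N2, a log2 change of 2.70 (SE 0.14, edgeR adjusted p = 0.000103). In none of these genes did the groups overlap. fbxa-54, of the same run as fbxa-60, had 2.94, 2.29 and 1.46 CPM, against 0.373, 0.616 and 0.300 CPM in N2 (log2 change 2.37, SE 0.39, edgeR adjusted p = 0.000358). Library c of this group was the lowest of the group for fbxa-24, fbxa-105, fbxa-60 and fbxa-54, and it was also the lowest in the tissue list, whose part in these changes was not tested.

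Among the members called lower in the met-2-labelled libraries were 6 of the 8 with the highest level per kilobase in N2, while fbxa-206 (log2 change -0.43, SE 0.19, edgeR adjusted p = 0.0582) and fbxa-101 (log2 change -0.39, SE 0.17, edgeR adjusted p = 0.0826) did not pass. A choice by level in N2 favours falls against N2. Of all genes at 5 CPM or more 44.2% were also called lower, and of all genes tested 29.6%. fbxa-120 (C33E10.2, X:17302719-17304036) had 4.55, 4.69 and 5.27 CPM, against 8.94, 12 and 10.3 CPM in N2, a log2 change of -1.11 (SE 0.14, edgeR adjusted p = 0.000569). fbxa-170 (C36C9.3, X:1676205-1678121) had 9.53, 6.38 and 8.23 CPM, against 13.8, 17.9 and 19 CPM in N2 (log2 change -1.07, SE 0.22, edgeR adjusted p = 0.000542). fbxa-83 and fbxa-65 fell by 0.80 (SE 0.08) and 0.88 (SE 0.14) on the log2 scale, with edgeR adjusted p = 0.000428 and 0.00107. The calls of these 4 genes held in every alternative and leave-one-out fit. fbxa-215 had a log2 change of -0.74 (SE 0.15, edgeR adjusted p = 0.00488), but the call was lost without library b of this group (adjusted p = 0.0564) and with library totals (adjusted p = 0.0608). fbxa-210 (log2 change -0.71, SE 0.16, edgeR adjusted p = 0.017) was not called without library a or b of this group (adjusted p = 0.116 and 0.102) or with library totals (adjusted p = 0.137), and fbxa-181 (log2 change -1.03, SE 0.31, edgeR adjusted p = 0.0125) was not called without library b (adjusted p = 0.0792) or with library totals (adjusted p = 0.0579). The maternal list was lower in the same libraries (20 of 22 tested genes), and its part in these changes was not tested.

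**Figure D2:**
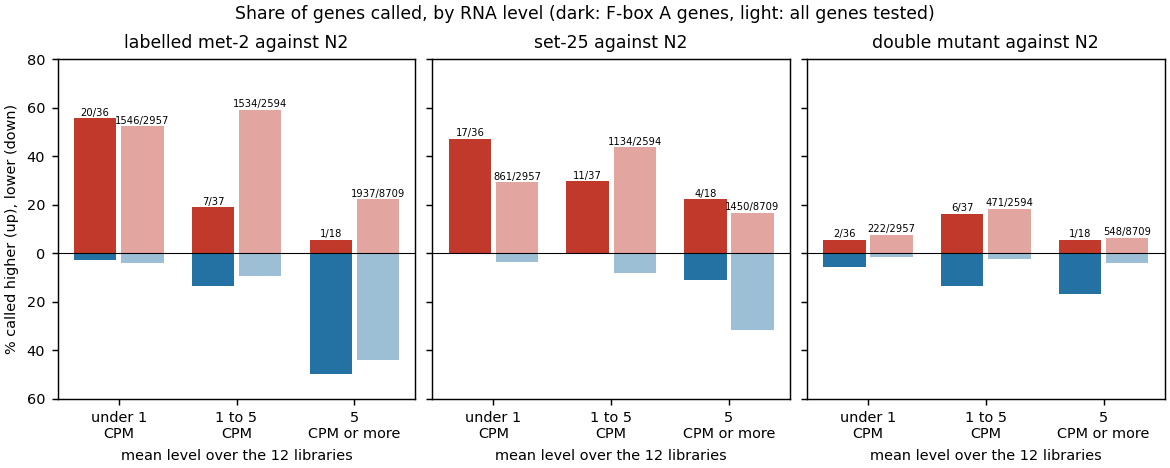
Share of genes called higher (upwards) or lower (downwards), in percent, by mean level over the 12 libraries, for F-box A genes (dark bars) and all genes tested (light bars) in the 3 other groups against N2. Numbers over the bars are genes called higher of genes tested. For set-25, 17 of 36 members below 1 CPM were higher, against 861 of 2957 genes of that level.

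In set-25 embryos most calls of F-box A genes against N2 were higher, while 57 members did not pass. Of 91 tested members 32 were called higher (35.2%) and 2 lower (2.20%), where 24.2% of all genes tested were called higher and 21.6% lower. The median log2 change was 0.58 over the members and 0.07 over all genes. The 2 lower members were fbxa-83 and fbxa-64, the second named after its values were seen. Below 1 CPM 17 of 36 members (47.2%) were higher, against 29.1% of all genes at that level, and from 1 to 5 CPM 11 of 37 (29.7%), against 43.7%. Without library a of set-25, 32 of 94 tested members were higher and 9 lower, beside 4161 and 3886 of 15106 genes. The edgeR count of lower members was 0 without any 1 met-2-labelled library, set-25 library b or c or N2 library b or c. Lower calls over all genes in those fits ran from 1911 of 15030 without set-25 library c to 2865 of 14235 without N2 library b. With all libraries 7 members were lower at an unadjusted p under 0.05, and 1 was called lower by DESeq2. With library totals 51 members were higher, beside 5778 of 14260 genes, and the median of all genes moved to 0.37. In a fit of the 6 libraries compared 19 of 78 tested members were higher, beside 1868 of 12884 genes.

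Several of the same genes stood high, with a wide spread between libraries. fbxa-24 had 0.197, 0.510 and 1.58 CPM in set-25 libraries a, b and c, a log2 change against N2 of 3.13 (SE 0.81, edgeR adjusted p = 0.00681). fbxa-105 had 0.355, 0.785 and 1.47 CPM (log2 change 2.61, SE 0.61, edgeR adjusted p = 0.00558), and fbxa-54 had 0.987, 2.04 and 2.68 CPM (log2 change 2.13, SE 0.49, edgeR adjusted p = 0.00153). In each of these genes library a was lowest and c highest, the order of the tissue list in these libraries, whose part was not tested. These comparisons share the N2 libraries with the ones above, so the values stand side by side and are no independent repeat.

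Further members rose with less spread between libraries. fbxa-136 (C18D4.2, V:17521035-17527479), the member with the longest exons in the family at 5668 bases, had 3.99, 6.44 and 6.52 CPM in set-25, against 0.934, 0.991 and 0.655 CPM in N2, a log2 change of 2.71 (SE 0.29, edgeR adjusted p = 0.00113). fbxa-184 (F45C12.8, II:1710259-1711417) had 2.57, 2.28 and 2.15 CPM, against 0.685, 0.669 and 1.06 CPM in N2 (log2 change 1.54, SE 0.22, edgeR adjusted p = 0.00312). fbxa-67, in the run of 10 on chromosome III and named after its values were seen, had 10.7, 9.38 and 8.93 CPM, against 3.32, 3.77 and 3.25 CPM in N2 (log2 change 1.49, SE 0.10, edgeR adjusted p = 0.000134). In these 3 genes the set-25 libraries stood above N2 with no overlap, and library a was the lowest for fbxa-136 but the highest for fbxa-184 and fbxa-67.

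In the fit of all 12 libraries the double mutant, which carries both alleles, had the fewest calls against N2. Of 91 tested members 9 were called higher (9.89%) and 10 lower (11%), where 8.70% of all genes tested were called higher and 3.34% lower. The median log2 change was -0.03 over the members and -0.01 over all genes. Of members from 1 to 5 CPM 6 of 37 (16.2%) were higher and 5 (13.5%) lower, against 18.2 and 2.39% of all genes at that level. These counts are small and move with single libraries. The higher calls became 4, 3 and 5 without double mutant library a, b or c, 2 and 4 without N2 library a or c, and 14 without set-25 library a. The lower calls became 5, 4 and 4 without double mutant library a, b or c, and 4, 5 and 4 without N2 library a, b or c. A fit of the 6 libraries alone tested 72 members and called 17 higher and 16 lower. Of all 13073 genes in that fit 3139 were higher and 2975 lower, so the member shares were near those of all genes. The same kind of fit of set-25 against N2 called 19 higher and 0 lower of 78 members. Of all 12884 genes there 1868 were higher and 2175 lower. In these fits the double mutant thus no longer had the fewest calls. In the fits of more libraries, calls over all genes in the double mutant against N2 also moved with single libraries. They became 423 higher and 70 lower of 14236 without double mutant library a, and 2567 and 2023 of 15106 without set-25 library a.

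The largest change of a tested member against N2 was that of fbxa-43 in the double mutant. fbxa-43 (T20H9.2, III:2257527-2258963) had 5.27, 4.23 and 5.10 CPM in the double mutant, against 0.145, 0.187 and 0.328 CPM in N2. It had 1.18, 0.323 and 0.178 CPM in the met-2-labelled libraries and 0.513, 0.393 and 0.683 CPM in set-25, so every double mutant library lay above all 9 others. The double mutant was 22.1-fold above N2 (log2 change 4.47, SE 0.29, edgeR adjusted p = 0.001), 8.78-fold above the met-2-labelled libraries (log2 3.13, SE 0.71, adjusted p = 0.000447) and 9.25-fold above set-25 (log2 3.21, SE 0.23, adjusted p = 0.000564). All 3 calls held in every alternative and leave-one-out fit. Its nearest neighbours in the run of 15 were not called in the double mutant against N2. fbxa-71, 279 bases away on the other strand, had a log2 change of 0.84 (SE 0.30, edgeR adjusted p = 0.235), and fbxa-42, 942 bases away on the same strand, one of -0.26 (SE 0.11, edgeR adjusted p = 0.524). Both neighbours are named for their place and not by the rule for named members.

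fbxa-136 was high in the double mutant too, and was the other member named here whose rise against N2 held in every fit. It had 6.25, 5.61 and 5.89 CPM in the double mutant, against 0.934, 0.991 and 0.655 CPM in N2, a 6.84-fold change (log2 2.77, SE 0.18, edgeR adjusted p = 0.00711). The met-2-labelled libraries had 4.94, 1.94 and 0.819 CPM, overlapping N2, and their call (log2 1.56, SE 0.74, edgeR adjusted p = 0.0149) was lost without library a of that label (adjusted p = 0.116) or N2 library c (adjusted p = 0.0536). fbxa-24 had 0.463, 0.618 and 0.438 CPM in the double mutant, all above N2 (log2 2.60, SE 0.27, edgeR adjusted p = 0.048), but its call was lost when any 1 library of the double mutant or of N2 was left out, with adjusted p up to 0.146. The calls of fbxa-52 (log2 1.62, SE 0.24, edgeR adjusted p = 0.0156), fbxa-184 (log2 1.49, SE 0.22, edgeR adjusted p = 0.0177) and fbxa-54 (log2 1.47, SE 0.27, edgeR adjusted p = 0.0389) were likewise lost without at least 4 single libraries of these groups, with adjusted p up to 0.0689, 0.0786 and 0.137. For fbxa-52 those were double mutant a and b and N2 a and c, for fbxa-184 double mutant b and c and N2 a and b, and for fbxa-54 all 3 of the double mutant and N2 a and c.

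fbxa-114 and fbxa-115 lie on either side of fog-2 and its tandem copy ftr-1 on chromosome V, and both were higher in the double mutant. fbxa-114 (Y113G7B.7, V:20201616-20202874), named after its values were seen, had 21.6, 16.2 and 18.9 CPM in the double mutant, against 8.59, 9.74 and 8.68 CPM in N2 (log2 1.07, SE 0.13, edgeR adjusted p = 0.00956). The call was lost without N2 library a (adjusted p = 0.0513). fbxa-115 (Y113G7B.3, V:20190535-20192152) had 5.14, 4.95 and 4.14 CPM, against 2.26, 2.38 and 2.48 CPM in N2 (log2 1.00, SE 0.10, edgeR adjusted p = 0.016), a call lost without double mutant library a or b or N2 library a or c, with adjusted p up to 0.07. Neither gene was called in the met-2-labelled libraries or in set-25 against N2.

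On chromosome V, fbxa-107, fbxa-192 and fbxa-106 fell in the double mutant against all other groups. fbxa-107 (Y37H2A.4, V:18123939-18125235) had 0.995, 1.17 and 1.03 CPM in the double mutant, 2.31, 2.51 and 3.42 CPM in the met-2-labelled libraries, 9.47, 7.07 and 5.83 CPM in set-25 and 4.09, 3.99 and 4.37 CPM in N2. No group overlapped another, with set-25 highest, then N2, then the met-2-labelled libraries, and the double mutant lowest. The double mutant was 3.89-fold below N2 (log2 -1.96, SE 0.08, edgeR adjusted p = 0.001) and 7-fold below set-25 (log2 -2.81, SE 0.21, edgeR adjusted p = 7.37e-06), and set-25 was 1.80-fold above N2 (log2 0.85, SE 0.21, edgeR adjusted p = 0.00988). The difference of the met-2-labelled libraries from N2 (log2 -0.59, SE 0.17, edgeR adjusted p = 0.0397) was lost without library a or b of that label, set-25 library b, double mutant library a or c or any N2 library, with adjusted p up to 0.206. fbxa-210, which starts 139 bases beyond fbxa-107 on the same strand, had 55.1, 54.9 and 54.6 CPM in the double mutant, against 58.2, 49.3 and 60.0 CPM in N2 (log2 -0.03, SE 0.09, edgeR adjusted p = 0.947).

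fbxa-192 (F57G4.8, V:17640672-17650527) had the same order of groups. It had 4.44, 4.52 and 4.12 CPM in the double mutant, 9.25, 6.13 and 7.23 CPM in the met-2-labelled libraries, 16.3, 17.2 and 20.3 CPM in set-25 and 12.3, 12.8 and 13.7 CPM in N2. The double mutant was 2.96-fold below N2 (log2 -1.57, SE 0.06, edgeR adjusted p = 0.000615) and the met-2-labelled libraries were 1.72-fold below N2 (log2 -0.78, SE 0.18, edgeR adjusted p = 0.002). The rise in set-25 was small (log2 0.47, SE 0.10, edgeR adjusted p = 0.0409) and was lost without any 1 library of the double mutant or N2, with adjusted p up to 0.117. fbxa-106 (Y59A8B.11, V:18082402-18085200) had 0.162, 0.119 and 0.180 CPM in the double mutant, against 0.602, 0.509 and 0.710 CPM in N2 (log2 -1.96, SE 0.18, edgeR adjusted p = 0.00646), while the met-2-labelled libraries had 0.470, 0.645 and 0.784 CPM and set-25 had 0.868, 0.628 and 0.631 CPM, both overlapping N2. With all libraries thinned to the same depth the call of fbxa-106 was lost (adjusted p = 0.067). fbxa-218, on chromosome III, had 0.740, 0.285 and 0.515 CPM in the double mutant, against 1.35, 1.34 and 1.47 CPM in N2 (log2 -1.42, SE 0.35, edgeR adjusted p = 0.0255). That call was lost without double mutant library b or c or any N2 library, with adjusted p up to 0.0946.

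**Figure D3:**
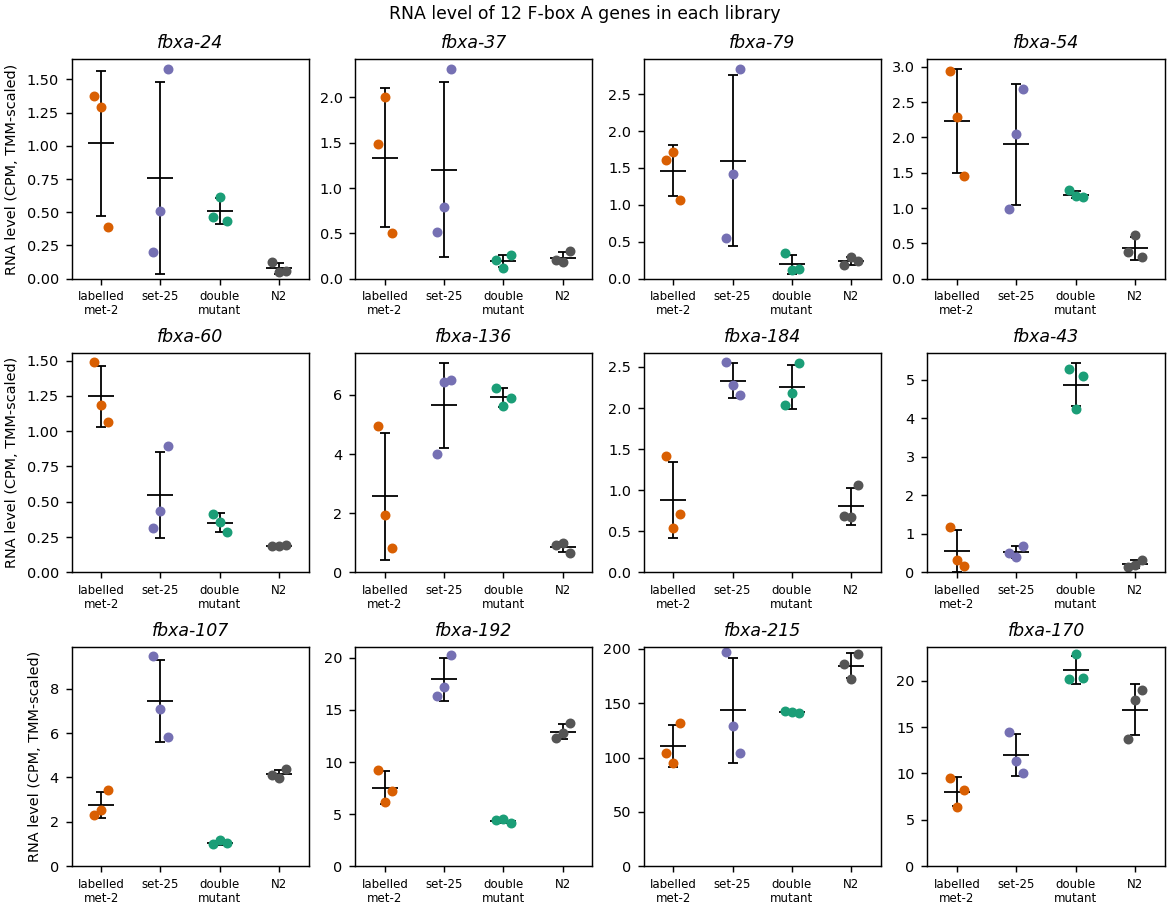
RNA level in CPM (vertical axes, linear, from 0) of 12 F-box A genes in the 3 libraries of each group, drawn as points in the order a, b, c, with the mean (long tick) and SD (bars). fbxa-43 is high in the 3 double mutant libraries, fbxa-37 and fbxa-79 are high in the met-2-labelled libraries and in set-25 but near N2 in the double mutant, and fbxa-107 and fbxa-192 are highest in set-25 and lowest in the double mutant.

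The summed level of the run of 26 neighbours on chromosome III was high in the met-2-labelled and set-25 libraries and low in the double mutant. Summed over all 26 members it stood at 13.9, 15.9 and 12.5 CPM in the met-2-labelled libraries, 12.8, 13.7 and 21.6 CPM in set-25, 6.69, 5.47 and 5.51 CPM in the double mutant and 8.05, 8.49 and 9.12 CPM in N2. The met-2-labelled and set-25 libraries all lay above N2, and those of the double mutant all below it. Only 10 of the 26 could be tested, and 4 of those passed the level in N2 itself. Of the 10, 8 were called higher than N2 in the met-2-labelled libraries and 6 in set-25, where 35.2 and 24.2% of all genes tested were. Among all genes below 1 CPM 52.3 and 29.1% were. The calls of fbxa-61, fbxa-80 and fbxa-19 in the met-2-labelled libraries and of fbxa-63 and fbxa-14 in set-25, all named after their values were seen, were lost in at least 1 of the fits with no filter, with thinned counts, with 6 libraries or by DESeq2, with adjusted p up to 0.114. Leaving out single libraries also ended these calls: library b of the met-2 label or N2 b or c for fbxa-61, library a or c of the met-2 label or N2 a or c for fbxa-19, N2 a or c for fbxa-63, set-25 a, double mutant b or any N2 library for fbxa-14, and any library but c of the met-2 label and set-25 a or c for fbxa-80. The adjusted p was up to 0.218 there. The set-25 call of fbxa-31 was lost without N2 library a (adjusted p = 0.0562). In the double mutant 9 were lower than in the met-2-labelled libraries and 9 lower than in set-25, where 30.8 and 17.7% of all genes were. Among all genes below 1 CPM these shares were 46.1 and 17.1%. fbxa-76 was the one member of the run called in the double mutant against N2 (log2 -0.85, SE 0.11, edgeR adjusted p = 0.0195), a call lost without any 1 library of either group, with adjusted p up to 0.0914.

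fbxa-79 (Y82E9BL.13, III:1305716-1308294), a member of the run, rose in the met-2-labelled and set-25 libraries. Its double mutant libraries lay on both sides of N2 and were not called against it (log2 -0.26, SE 0.41, edgeR adjusted p = 0.797). It had 1.61, 1.72 and 1.07 CPM in the met-2-labelled libraries, 0.553, 1.41 and 2.84 CPM in set-25, 0.347, 0.119 and 0.129 CPM in the double mutant and 0.187, 0.294 and 0.246 CPM in N2. It was 6.02-fold above N2 in the met-2-labelled libraries (log2 2.59, SE 0.26, edgeR adjusted p = 0.00164) and 6.48-fold in set-25 (log2 2.70, SE 0.67, edgeR adjusted p = 0.00254), while the double mutant was 7.21-fold below the met-2-labelled libraries (log2 -2.85, SE 0.43, edgeR adjusted p = 0.00161) and 7.75-fold below set-25 (log2 -2.95, SE 0.75, edgeR adjusted p = 0.00199). fbxa-37 (ZC47.14, III:1284996-1287140) had 1.49, 2.01 and 0.499 CPM in the met-2-labelled libraries, 0.513, 0.785 and 2.31 CPM in set-25, 0.208, 0.119 and 0.257 CPM in the double mutant and 0.207, 0.187 and 0.300 CPM in N2. fbxa-32 had 0.745, 0.753 and 0.784 CPM in the met-2-labelled libraries, 0.671, 0.510 and 0.893 CPM in set-25, 0.301, 0.166 and 0.154 CPM in the double mutant and 0.207, 0.214 and 0.164 CPM in N2. In all 3 genes the double mutant overlapped N2, and the met-2-labelled and set-25 libraries all lay above N2. The calls of these 3 genes in the met-2-labelled libraries and in set-25 against N2, and in the double mutant against both, held in every fit in which they were tested. In set-25, fbxa-79 and fbxa-37 had the library order of the tissue list. That list was higher in the double mutant (2574 to 2730 CPM) than in set-25 library c (2291 CPM), where both genes had their highest set-25 level, and its part in these changes was not tested.

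The other long runs on chromosome III differed from this one in the double mutant. The run of 15 summed to 7.57, 8.67 and 7.91 CPM in the met-2-labelled libraries, 9.59, 7.07 and 11.3 CPM in set-25, 9.62, 8.56 and 9.78 CPM in the double mutant and 4.88, 4.98 and 4.67 CPM in N2, all libraries of the other groups above N2. fbxa-43 alone supplied 4.23 to 5.27 CPM of the sum in the double mutant. The run of 10 summed to 23.8, 22.4 and 17.1 CPM in the met-2-labelled libraries, 28.9, 26.7 and 33.3 CPM in set-25, 15, 14.2 and 13.4 CPM in the double mutant and 13, 12.7 and 12.8 CPM in N2. In the run of 10, 6 of 7 tested members were called higher in set-25 and 3 in the met-2-labelled libraries against N2, and 1, fbxa-54, in the double mutant. Over chromosome III as a whole 16, 18 and 2 of 31 tested members were higher than N2 in the met-2-labelled libraries, set-25 and the double mutant. In the same order 0, 0 and 3 were lower. Of all genes tested 35.2, 24.2 and 8.7% were higher and 29.6, 21.6 and 3.34% lower. Among all genes below 1 CPM 52.3, 29.1 and 7.51% were higher and 4.13, 3.82 and 1.66% lower. On chromosome V 8, 8 and 4 of 35 were higher and 10, 1 and 5 lower. The difference between the chromosomes was not tested. Of the members that stand alone, fbxa-89 at the other end of chromosome III, named after its values were seen, had 0.470, 0.896 and 0.392 CPM in the met-2-labelled libraries, 0.316, 0.864 and 1.16 CPM in set-25, 0.0463, 0.0713 and 0.0257 CPM in the double mutant and 0.0415, 0.0535 and 0.0546 CPM in N2. Its levels in the double mutant and in N2 rest on 6 counts in each group.

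**Figure D4:**
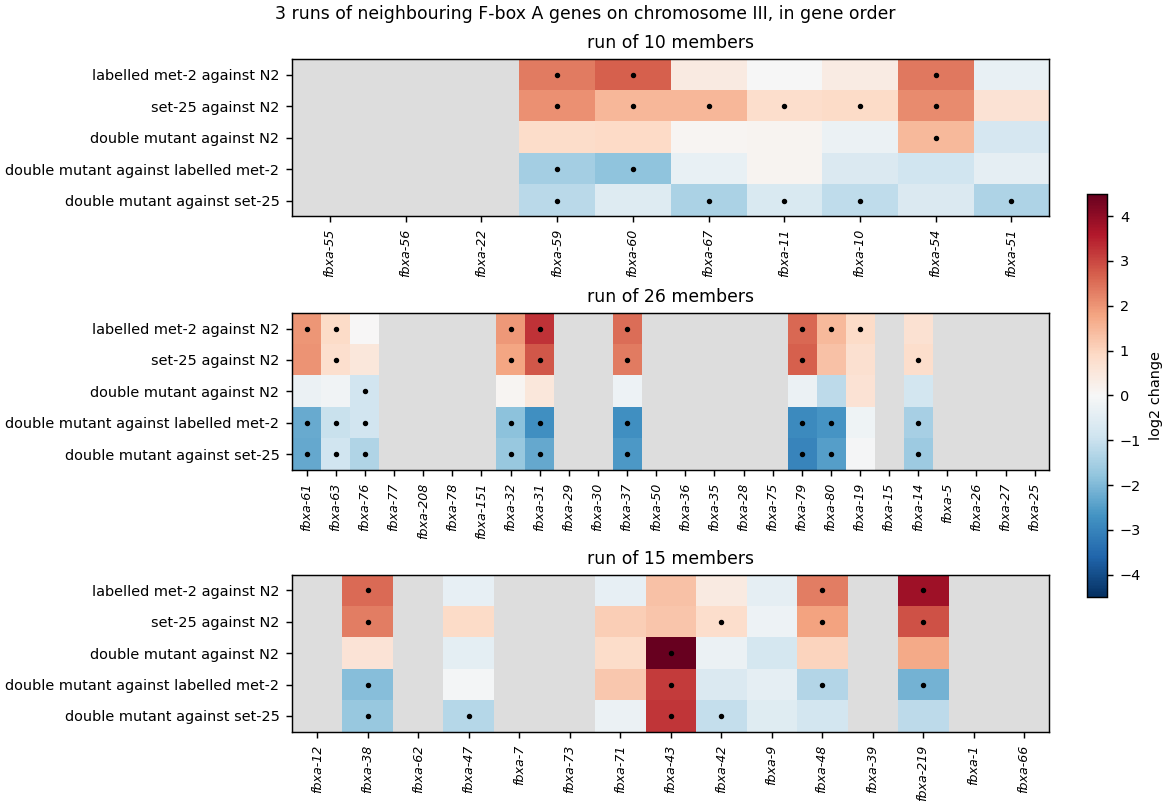
log2 changes (colour, red higher and blue lower in the first-named group) of the members of the runs of 10, 26 and 15 on chromosome III, in gene order from left to right, for the 3 other groups against N2 and the double mutant against the met-2-labelled and set-25 libraries. Grey members had too few counts to be tested, and dots mark calls with adjusted p under 0.05. In the run of 26 the double mutant is lower than the met-2-labelled libraries in 9 and lower than set-25 in 9 of 10 tested members, and fbxa-43 in the run of 15 is the darkest red in the double mutant.

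Set directly against the met-2-labelled and set-25 libraries, the double mutant had more F-box A genes called lower than higher. Below 1 CPM 20 of 36 members were lower than in the met-2-labelled libraries (55.6%, against 46.1% of all genes at that level) and 15 of 36 lower than in set-25 (41.7%, against 17.1%). At 5 CPM or more 8 of 18 members were higher and 3 lower than in the met-2-labelled libraries (44.4 and 16.7%, against 33.1 and 19.7% of all genes), and 2 were higher and 4 lower than in set-25 (11.1 and 22.2%, against 28.5% higher and 1470 of 8709 lower among all genes). Against the met-2-labelled libraries, 16 of 91 tested members were called higher (17.6%) and 34 lower (37.4%), where 23.1% of all genes tested were higher and 30.8% lower, with a median log2 change of -0.38 over the members and -0.12 over all genes. With library totals these counts were 10 higher and 42 lower, beside 1959 higher and 6064 lower of 14260 genes. Against set-25, 7 were called higher (7.69%) and 35 lower (38.5%), where 20.5% of all genes were higher and 17.7% lower, with medians of -0.59 and -0.10. With library totals these counts were 2 higher and 50 lower, beside 1818 higher and 5065 lower of 14260 genes. The 7 higher calls became 4 without any 1 library labelled met-2, 2 and 4 without set-25 library b or c, 3 without double mutant library a and 13 without set-25 library a. In these fits the higher calls over all genes ran from 2393 of 15112 without set-25 library b to 3299 of 15106 without set-25 library a. The 35 lower calls became 18, 22 and 17 without double mutant library a, b or c. Lower calls over all genes fell too, from 2530 of 14260 to 1301 of 14236, 1296 of 14234 and 1128 of 14232.

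Among the abundant members, fbxa-170 was higher in the double mutant than in both, but was not called there against N2 (log2 0.32, SE 0.15, edgeR adjusted p = 0.252). It had 20.2, 22.9 and 20.3 CPM in the double mutant, against 9.53, 6.38 and 8.23 CPM in the met-2-labelled libraries (log2 1.39, SE 0.18, edgeR adjusted p = 0.000193) and 14.4, 11.3 and 10.1 CPM in set-25 (log2 0.82, SE 0.16, edgeR adjusted p = 0.00645). The second call was lost without set-25 library b (adjusted p = 0.0541) and with library totals (log2 0.52, adjusted p = 0.0501). fbxa-206 had 49.0, 45.7 and 46.9 CPM in the double mutant, against 30.4, 20.6 and 28.5 CPM in the met-2-labelled libraries (log2 0.83, SE 0.18, edgeR adjusted p = 0.0031). It was not called in the double mutant against N2 (log2 0.40, SE 0.08, edgeR adjusted p = 0.153). The scarcer fbxa-2 had 1.85, 1.47 and 1.42 CPM, against 0.750, 0.510 and 1.10 CPM in set-25 (log2 1.02, SE 0.32, edgeR adjusted p = 0.0262), a call lost without double mutant library a or set-25 library b (adjusted p = 0.0777 and 0.115), with library totals (adjusted p = 0.0855) and in a fit of the 6 libraries (adjusted p = 0.0563). Nor was it called in the double mutant against N2 (log2 0.26, SE 0.21, edgeR adjusted p = 0.553). fbxa-137, a lone member of chromosome V named after its values were seen, had 4.23, 3.5 and 3.99 CPM in the double mutant, 7.88, 8.49 and 5.02 CPM in the met-2-labelled libraries, 3.63, 4.20 and 9.88 CPM in set-25 and 2.05, 1.77 and 0.764 CPM in N2. All libraries of the other groups lay above all N2 libraries, but against N2 the double mutant missed the threshold (log2 1.34, SE 0.43, edgeR adjusted p = 0.0546).

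Few members were called between the met-2-labelled and set-25 libraries. Of 91 tested members 1 was called higher in the met-2-labelled libraries than in set-25 (1.10%) and 11 lower (12.1%), where 15.5% of all genes tested were higher and 9.28% lower. The median log2 difference was -0.22 over the members and 0.11 over all genes. fbxa-60 was the higher one (log2 1.22, SE 0.42, edgeR adjusted p = 0.0338), a call lost without library a or b of the met-2 label, of set-25 or of the double mutant, with adjusted p up to 0.114. The lower ones included fbxa-192 (log2 -1.25, SE 0.20, edgeR adjusted p = 0.00447), whose call held in all 12 leave-one-out fits, and fbxa-107 (log2 -1.44, SE 0.26, edgeR adjusted p = 0.00789), fbxa-184 (log2 -1.40, SE 0.39, edgeR adjusted p = 0.0191) and fbxa-47 (log2 -1.21, SE 0.38, edgeR adjusted p = 0.0329), each lost without library b labelled met-2, with adjusted p = 0.0566, 0.0854 and 0.125. fbxa-47 was also lost without library a labelled met-2, set-25 library a or double mutant library a. The 11 lower calls became 1 without library b labelled met-2, 7 without set-25 library a, 20 without library c labelled met-2 and 26 without set-25 library c. Lower calls over all genes moved too, to 19 of 14882, 803 of 15106, 2809 of 15091 and 3501 of 15030 in the same order. An edgeR fit of the 6 libraries alone called 0 members higher and 0 lower, and of all 13402 genes 0 higher and 3 lower. Members numbered 2 and 13 at an unadjusted p under 0.05 there, and 2 and 18 by DESeq2 with all libraries.

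**Figure D5:**
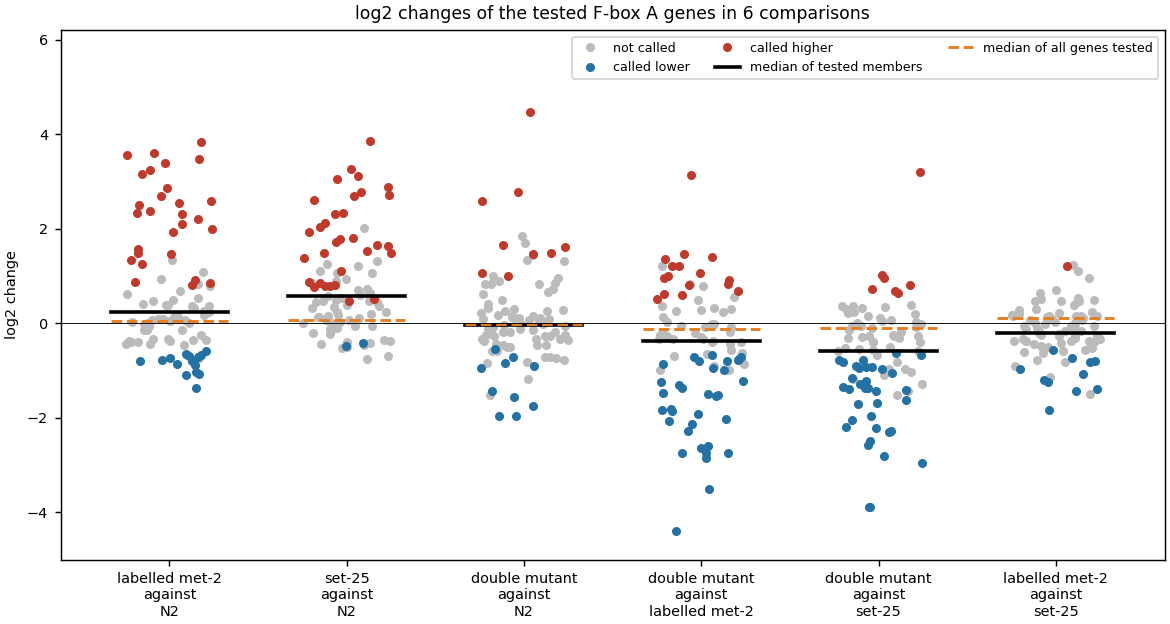
log2 changes (vertical axis) of the 91 tested F-box A genes in 6 comparisons, each the first-named group against the second. Red and blue points were called higher and lower with adjusted p under 0.05. The median of the members (black line) lies above that of all genes tested (dashed) for the met-2-labelled libraries and for set-25 against N2, at 0.25 and 0.58, and below it where the double mutant is set against them, at -0.38 and -0.59.

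In the other lettered F-box families more genes were lower than higher than N2 in each of the other groups. Of 102 tested F-box B genes, which pair the F-box with another target-binding domain, 1, 3 and 2 were called higher than N2 in the met-2-labelled libraries, set-25 and the double mutant. In the same order 66, 18 and 7 (64.7, 17.6 and 6.86%) were called lower. Of 38 tested F-box C genes 1, 4 and 1 were higher and 18, 7 and 4 (47.4, 18.4 and 10.5%) lower. Over all genes tested 35.2, 24.2 and 8.70% were higher and 29.6, 21.6 and 3.34% lower in the same groups. In set-25 the lower shares of both families were thus not above that of all genes. The difference between the families was not tested. Of 17 tested skr genes, which encode the Skp1-related adaptors, 12 (70.6%) were lower in the met-2-labelled libraries and 4 (23.5%) in set-25. Of 10 cullins, RING proteins and their regulators 5 and 4 were lower and 1 and 2 higher in these groups, with cul-6 the one higher in the met-2-labelled libraries. Of 21 tested genes of the MATH family, another expanded class of the worm genome, 12, 12 and 6 (57.1, 57.1 and 28.6%) were higher and 1, 1 and 2 lower in the 3 other groups. RefSeq names 52 further fbxa genes as pseudogenes, which lie outside the rule, and of 23 tested 6, 9 and 2 were higher than N2 in the 3 other groups (26.1, 39.1 and 8.7%), and 2 and 1 were lower in the met-2-labelled libraries and set-25.

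The members tied to the pathogen response had little RNA in these embryos. fbxa-75 (Y119D3A.1, III:1303714-1305461), in the run of 26, had 1 count in each group and could not be tested. fbxa-158 (C08E3.10, II:1619814-1621280) had 0.706, 0.358 and 0.142 CPM in the met-2-labelled libraries, 0.434, 0.746 and 0.893 CPM in set-25, 0.532, 0.571 and 0.592 CPM in the double mutant and 0.207, 0.161 and 0.246 CPM in N2. It was called in set-25 (log2 1.72, SE 0.32, edgeR adjusted p = 0.0129), though not with all libraries thinned to the same depth (adjusted p = 0.0908). In the double mutant its log2 change of 1.45 (SE 0.14, edgeR adjusted p = 0.0625) missed the threshold with no overlap between the groups. Of 9 tested genes of the intracellular pathogen response 4 (44.4%) were higher in the met-2-labelled libraries, beside 35.2% of all genes tested. In set-25 1 was higher and 1 lower, beside 24.2 and 21.6% of all genes.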

How the data were processed

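The authors deposited raw counts per gene, in whole numbers and unscaled, for 12 libraries, with a gene width in bases in another unit. The sources used here do not name the aligner, build, counter, strand setting or handling of reads with several places. Each column was tied to a genotype by its name. Of 27904 genes 27166 (97.4%) matched the Ensembl annotation of WBcel235, which gives symbols and positions. edgeR 4.0.16 (R 4.3.3) fitted all 12 libraries in 1 robust quasi-likelihood fit with TMM scaling. Its low-count filter, grouped by genotype, left 14260 genes. A call is a two-sided p under 0.05 after Benjamini-Hochberg adjustment over those genes. CPM are TMM-scaled. The SE of a log2 change is from replicate log2 CPM with a prior count of 2. The scripts were tested on simulated data. Members and lists were chosen with earlier results of these data known. Named members are, for each mutant against N2, the 6 largest rises and 6 largest falls (4 and 4 between mutants) among calls of at least 2-fold at 0.5 CPM or more without overlap, the 8 with the highest level per kilobase in N2, and fbxa-75 and fbxa-158, of which part is given. Others are marked. Alternatives were DESeq2 1.42.0, other scalings, no filter, thinning to 16929810 counts, fits of 6 libraries and leaving out each library. The deposited repeat table was not used here.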

Additional observations from a re-analysis of the deposited data

How the results depend on the processing

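No paired analysis was possible because the columns carry letters, the sample titles numbers, and nothing ties them. Of 130 calls of named members 74 held in every setting and no call changed sign in the settings run. Counts of members moved as follows. With DESeq2's size factors, and with thinned libraries, library totals or a fit of 6 libraries, edgeR called 0 members lower in set-25 against N2 (4, 1, 0 and 1 at an unadjusted p under 0.05), and 1 was called with no filter or with the DESeq2 test. Over all genes size factors, thinning, totals and 6 libraries gave 2707 of 14260, 2356 of 13107, 1762 of 14260 and 2175 of 12884 lower. With totals 7 were lower in the met-2-labelled libraries and 51 higher in set-25 against N2, and 10 and 2 higher in the double mutant against the met-2-labelled libraries and set-25. Of all 14260 genes 2440 were lower, 5778 higher, 1959 higher and 1818 higher with totals, in the same order. Thinned, 6 of 74 tested were lower in the double mutant against N2, 20 lower against the met-2-labelled libraries and 4 higher against set-25. Of all 13107 genes 112 were lower, 3369 lower and 2577 higher when thinned, in the same order. Fits of 6 libraries gave 19 higher for set-25 and 17 higher and 16 lower for the double mutant against N2, 3 higher for the double mutant against set-25 and 0 and 0 for the met-2-labelled libraries against set-25 (2 and 13 at an unadjusted p under 0.05). Over all genes such fits called 3139 higher and 2975 lower of 13073 for the double mutant against N2. For set-25 against N2 they called 1868 higher of 12884, and for the double mutant against set-25 2282 higher of 13084. For the met-2-labelled libraries against set-25 they called 0 higher and 3 lower of 13402. For that last pair no filter gave 7 lower, the DESeq2 test 2 higher and 18 lower, and thinning 0 higher (2 unadjusted). Over all genes these were 868 of 22472, 2485 and 2142 of 13756, and 1734 of 13107. Leaving out 1 library gave 23 to 32 higher and 8 to 18 lower for the met-2-labelled libraries against N2, 24 to 46 and 0 to 9 for set-25 against N2, 2 to 14 and 4 to 14 for the double mutant against N2, 11 to 19 and 26 to 36 for the double mutant against the met-2-labelled libraries, 2 to 13 and 17 to 39 for the double mutant against set-25, and 0 to 2 and 1 to 26 for the met-2-labelled libraries against set-25. Calls over all genes moved as well. For this last pair the lower calls ran from 19 of 14882 without library b labelled met-2 to 3501 of 15030 without set-25 library c. The causes were not tested. Without the 9 tested members whose exons overlap another gene, chosen after seeing the data, 25, 29 and 8 were higher and 13, 2 and 9 lower than N2 in the met-2-labelled libraries, set-25 and the double mutant. With them the counts were 28, 32 and 9 higher and 15, 2 and 10 lower of 91 tested. Low counts limit members below 1 CPM, where 1 count is a large part of a level.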
